A study of Bos grunniens and Bos grunniens x Bos taurus with 2 samples.

Results

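Lymphatic endothelial cells (LECs) line the vessels that return tissue fluid, proteins and leukocytes from an organ to the blood. They are set apart from blood endothelial cells (blood ECs) by the transcription factor *PROX1*, which keeps their identity, and by *FLT4*, the receptor through which the growth factors *VEGFC* and *VEGFD* drive their growth. In the testis, lymphatic vessels run in the interstitium and in the capsule and take up interstitial fluid. LECs also guide immune cells, mainly through the chemokine *CCL21*, which draws dendritic cells and T cells that carry *CCR7*.

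LECs were chosen by the raw counts of unique molecular identifiers (UMIs, 1 per captured RNA molecule) of 4 genes. A cell was taken if it held at least 3 UMIs of *MMRN1*, at least 2 UMIs of *PROX1*, *FLT4* and *RELN* together, and a mitochondrial share under 30%. *MMRN1* encodes multimerin 1 and *RELN* the secreted glycoprotein reelin. A total of 740 cells out of 20921 met the rule. They comprised 523 of the 11114 yak cells under the mitochondrial limit (4.71%, 95% exact binomial interval 4.32 to 5.12%) and 217 of the 7620 cattle-yak cells (2.85%, 2.49 to 3.25%). Since these 4 genes chose the cells, their levels are a description and not a finding.

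The study profiled dissociated testis of a yak (*Bos grunniens*) and of a cattle-yak (*Bos grunniens* x *Bos taurus*) by droplet single-cell RNA sequencing. The yak was a healthy, sexually mature male of 4 years, and the paper does not describe the cattle-yak or its age. By the paper's methods, which name the yak only, the tissue was frozen, thawed, and digested with collagenase IV and hyaluronidase and then trypsin. The labels of both libraries also carry the entry germ cell. The yak library stands for 1 animal, while the paper does not give the number of cattle-yak animals. Each group is 1 library, with 11991 cells and 60816600 UMIs for the yak and 8930 cells and 43774841 UMIs for the cattle-yak, so no test was possible. A difference between the libraries therefore compares 2 libraries and cannot be told apart from a difference between animals, preparations or crosses. Levels are given as counts per 1000000 UMIs (CPM) of the summed UMIs of a class, with exact Poisson intervals at 95%. Ratios are log2 ratios with 1 CPM added to each side, and their intervals are those of the ratio without this addition. All intervals cover counting error only.

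The yak LECs held 3458936 UMIs in all, with a median of 5030 per cell and a median mitochondrial share of 13.5%. The cattle-yak LECs held 1103165 UMIs, with a median of 4089 and a higher median mitochondrial share of 21.7%. *MMRN1* ranged from 3 to 94 UMIs per yak LEC with a median of 15, and from 3 to 49 with a median of 11 per cattle-yak LEC. *RELN* was seen in 495 of 523 yak LECs and 205 of 217 cattle-yak LECs, *PROX1* in 342 and 98, and *FLT4* in 158 and 73. At the edge of the rule, 12 yak and 8 cattle-yak LECs held exactly 3 *MMRN1* UMIs, and 91 and 67 held exactly 2 UMIs of the 3 other genes together. Just outside it, 23 yak and 11 cattle-yak cells missed the rule with 2 *MMRN1* UMIs, and 111 and 60 cells missed it with 1 UMI of the 3 other genes. Both libraries shared 24 cell barcodes, none of which belonged to 2 LECs.

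When all cells were clustered without the 4 rule genes, most LECs still fell together. In the yak, 468 of 523 LECs (89.5%) lay in a single cluster of 694 cells, and in the cattle-yak 200 of 217 (92.2%) lay in a cluster of 308 cells. Of the 226 other yak cells in that cluster, 221 held at least 1 UMI of a rule gene and 159 at least 3 of *MMRN1*. Their median was 3113 UMIs per cell against 4825 for the LECs beside them. In the cattle-yak, 79 of 108 other cells held at least 3 *MMRN1* UMIs. Most cells of the cluster that the rule left out therefore held enough *MMRN1* for it, and as a group they were shallower than the LECs. The 55 yak LECs outside the cluster were deep, at a median of 10300 UMIs, and 26 of them also met the gate of another cell type. In all, 40 yak and 13 cattle-yak LECs met another gate, in the yak mostly that of contractile cells (22) or T/NK cells (14). The doublet caller Scrublet called 2 yak cells out of 11991 and has not worked there, and 12 LECs among 251 calls in the cattle-yak, so no cell was removed and counts are given without the cells of another gate where these change them.

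Blood ECs of the same library served as the reference. They were 603 yak and 594 cattle-yak cells with UMIs of pan-endothelial and blood endothelial genes and none of *MMRN1* or *PROX1*, and they were deeper than the LECs, at medians of 8329 and 10668.5 UMIs. The genes of both gates were left out of all counts below. In the yak, 377 of 8602 genes (4.38%) were at least 4-fold higher in LECs than in blood ECs and 301 (3.5%) at least 4-fold lower. In the cattle-yak, 122 of 7871 genes (1.55%) were at least 4-fold higher and 430 (5.46%) at least 4-fold lower. With 5 CPM added in place of 1, the lower genes were 158 in the yak and 229 in the cattle-yak, and the latter were 186 among cells of 3000 to 8000 UMIs. With a minimum of 10 summed counts in place of 50, the higher genes were 652 in the yak and 323 in the cattle-yak. The yak count of higher genes was 207 without the 40 LECs of another gate and 176 among cells of 3000 to 8000 UMIs. Of the 7643 genes tested in both libraries, 115 were called higher in the yak and 120 in the cattle-yak, and 65 were called in both, which is 56.5% of the yak genes and 54.2% of the cattle-yak genes. For lower genes, 204 were shared, or 72.1% of 283 yak genes and 53.3% of 383 cattle-yak genes. Of all genes tested in both, 1.5% and 1.57% were called higher and 3.7% and 5.01% lower in the yak and the cattle-yak. Most of the 377 genes called higher in the yak were not among the genes tested in both.

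Most of the lymphatic genes that the rule had not used, and that had enough UMIs to be tested, were higher in LECs. Of 18 further lymphatic genes tested in the yak, 15 were at least 2-fold higher in LECs, where 10.4% of all tested genes were, and 1 was at least 2-fold lower. In the cattle-yak, 12 of 16 were higher, against 5.08% of all tested genes, and 1 was lower. The medians were 3.38 and 3.11 on the log2 scale, beside medians of -0.02 and -0.19 over all tested genes. The shares of all tested genes that were at least 2-fold lower were 9.92% in the yak and 15.3% in the cattle-yak, and every count of list genes below is to be read against these 4 shares. The lists were chosen with earlier results of these data known. Of 26 further lymphatic genes in the annotation, 4 had no UMI in yak LECs and 5 none in cattle-yak LECs. *LYVE1* and *PDPN*, the usual surface markers of LECs, were not found by symbol among the annotated genes and were not analysed here.

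*CCL21* had the largest ratio in the yak among the genes that qualified for naming. It stood at 1201 CPM in yak LECs and 3.9 CPM in blood ECs, which gives a log2 ratio of 7.94 (7.69 to 8.91). In the cattle-yak it stood at 5851 and 21.9 CPM, giving 8.00 (7.83 to 8.30). *PKHD1L1*, a large membrane protein related to fibrocystin, was at 535 CPM in yak LECs and 538 CPM in cattle-yak LECs, with log2 ratios of 7.67 (7.48 to 9.42) and 7.55 (7.37 to 9.07). Its UMIs were found in 60.6% of yak and 65.3% of cattle-yak LECs thinned to 2000 UMIs, in 0.336% and 0.337% of blood ECs, and in 0.454% and 1.03% of T/NK cells. *GPM6A*, a membrane glycoprotein best known from neurons, was at 515 CPM in the yak and 259 CPM in the cattle-yak, against 1.79 and 0.871 CPM in blood ECs.

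A group of less known genes was also named for a high ratio to blood ECs in the yak. Such genes had to be at least 2-fold higher in the cattle-yak too, so their shared direction follows from the choice. *SCN3A*, an alpha subunit of voltage-gated sodium channels, was at 164 CPM in yak LECs, while yak blood ECs held no UMI of it, which allows up to 0.488 CPM. In the cattle-yak it was at 105 CPM in LECs, with 1 UMI in all blood ECs. *KLHL4*, a kelch-like protein, was at 162 and 159.5 CPM in LECs and at 0.325 and 0.29 CPM in blood ECs. *ABI3BP*, a matrix protein, was at 179 and 115 CPM, with log2 ratios of 5.93 and 5.48. The polarity gene *PARD6G* was at 208 and 112 CPM, with log2 ratios of 6.51 and 4.66. *TNFAIP8L3*, a phosphoinositide transfer protein, was at 54.4 and 43.5 CPM and had 0 and 2 UMIs in blood ECs. *GPX3*, a secreted glutathione peroxidase, was at 271 CPM in yak LECs and 723 CPM in cattle-yak LECs, with log2 ratios of 5.75 and 7.90. The fatty acid-binding protein gene *FABP7* was at 229 CPM in the yak with a log2 ratio of 6.86, and at 38.1 CPM in the cattle-yak with a log2 ratio of 4.92. Thus *KLHL4* had near equal levels in both libraries, while *GPX3* and *FABP7* differed between them in opposite directions. Among genes with no symbol, ENSBGRG00000019316 was at 329 and 200 CPM in LECs and under 1 CPM in blood ECs.

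**Figure D1:**
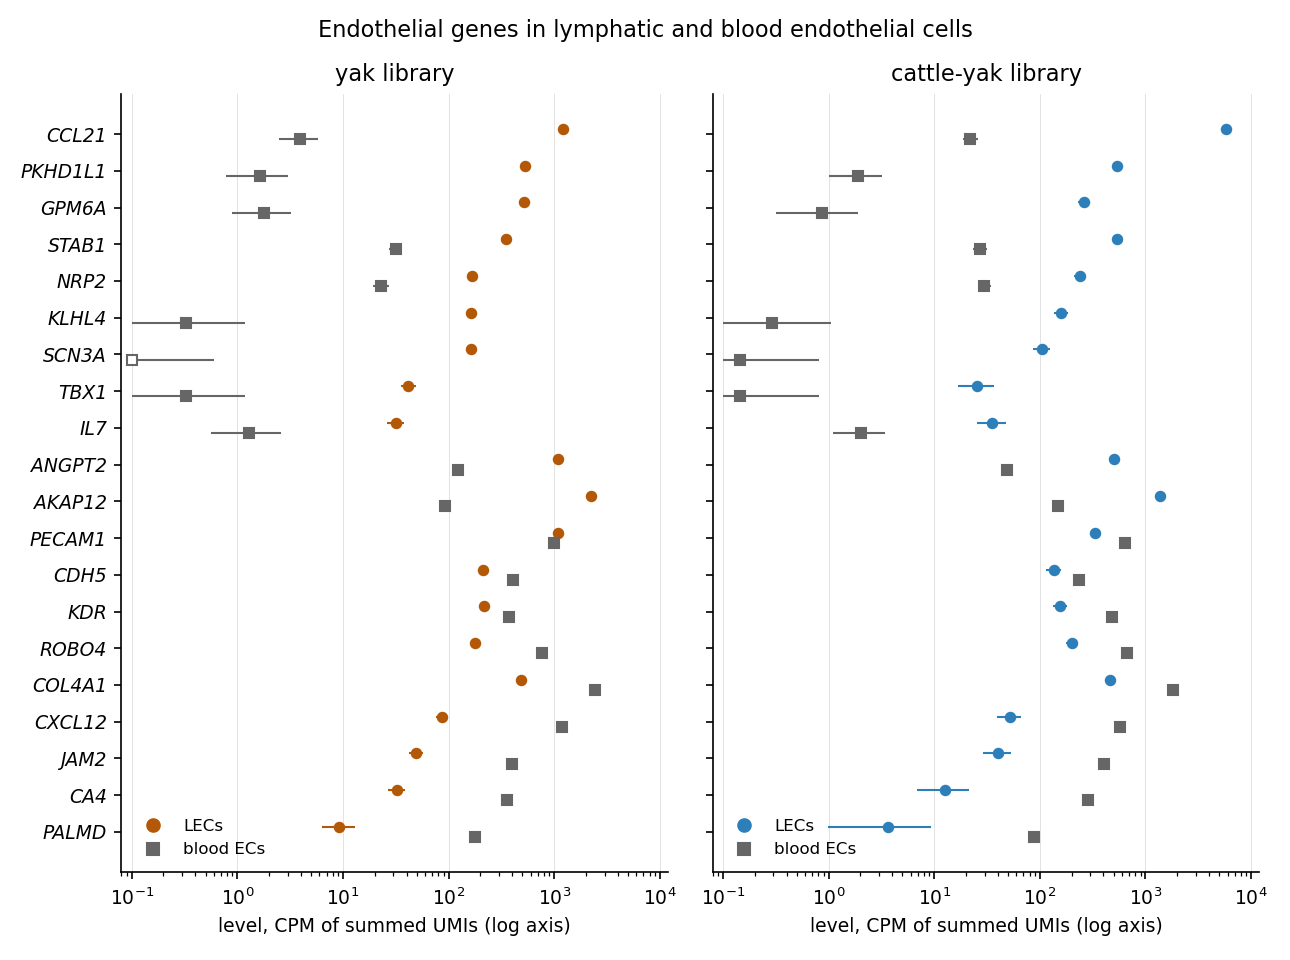
Levels of 20 endothelial genes in LECs (circles) and blood ECs (squares) of each library, in CPM of summed UMIs on a log axis, with 95% Poisson intervals. An open symbol at the left edge marks a gene with no UMI. The genes from *CCL21* to *IL7* lie far to the right in LECs in both libraries, whereas *CXCL12*, *JAM2*, *CA4* and *PALMD* lie to the right in blood ECs. *GPM6A* was not on the lymphatic list and was named for its ratio, and *IL7* was on the leukocyte traffic list.

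Of the transcription factors on the list, *NR2F1* and *TBX1* stood far above blood ECs in both libraries, whereas *SOX18* did not. *NR2F1*, an orphan nuclear receptor, was at 449 CPM in yak LECs and 223 CPM in cattle-yak LECs, with log2 ratios of 5.30 (5.07 to 5.81) and 3.77 (3.52 to 4.20). *NR2F2*, which binds *PROX1* and is needed to turn venous cells into LECs, was at 211 and 183 CPM, with smaller log2 ratios of 1.62 (1.46 to 1.81) and 0.82 (0.59 to 1.05). Stromal cells held more of it than LECs, at 409 CPM in the yak and 282 CPM in the cattle-yak. *TBX1*, a T-box factor required for lymphatic growth, was at 41.6 and 25.4 CPM and had 2 and 1 UMIs in blood ECs. *SOX18*, which induces *PROX1* in the embryo, was at 23.7 and 17.2 CPM in LECs and 21.5 and 18 CPM in blood ECs, so that the ratios of 0.14 and -0.06 both had intervals that included 0. *FOXC2*, the valve transcription factor, had 16 UMIs in yak LECs (4.63 CPM, 2.64 to 7.51) and none in cattle-yak LECs, which allows up to 2.72 CPM.

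Among the remaining lymphatic genes, the scavenger receptor *STAB1* was at 346 CPM in yak and 542 CPM in cattle-yak LECs, with log2 ratios of 3.41 (3.23 to 3.67) and 4.26 (4.07 to 4.56). It was also measured in macrophages, at 92.9 and 157 CPM. *AKAP12*, a scaffold of protein kinase A, was at 2255 and 1362 CPM in LECs, with log2 ratios of 4.60 and 3.19, and at 2245 and 1876 CPM in stromal cells. The guidance ligand *SEMA3D* was at 102 CPM in the yak and 47.1 CPM in the cattle-yak, with log2 ratios of 3.35 and 1.39. *TFPI2*, a protease inhibitor, was the 1 gene of the list that was lower in LECs, at log2 ratios of -1.97 (-2.06 to -1.88) and -1.89 (-2.14 to -1.67). *NTS*, *TFF3* and *HOXD3* had no UMI in the LECs of either library, and *STAB2* had 7 and 2 UMIs.

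Pan-endothelial genes were on balance lower in LECs than in blood ECs. Of 15 tested, 11 were at least 2-fold lower in each library, where 9.92% of all genes in the yak and 15.3% in the cattle-yak were lower. The medians were -1.49 and -1.74, and among cells of 3000 to 8000 UMIs the lower genes of the cattle-yak were 7. *ENG*, a TGF-beta coreceptor, had log2 ratios of -2.08 (-2.22 to -1.95) and -2.16 (-2.36 to -1.97). *CLEC14A*, a lectin of blood vessels, was at 2.89 and 1.81 CPM in LECs and 32 and 41.9 CPM in blood ECs. The sphingosine 1-phosphate receptor *S1PR1* went the other way, at 68.8 and 48 CPM in LECs, with log2 ratios of 1.17 (0.91 to 1.48) and 0.65 (0.20 to 1.10). Of the gate genes, which are given as values only, *PECAM1* was at 1089 CPM in yak LECs and 991 CPM in yak blood ECs, but at 332 and 642 CPM in the cattle-yak.

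Most genes of the blood endothelial list were lower in LECs. In the yak 14 of 16 tested genes were at least 2-fold lower in LECs (9.92% of all tested genes) and in the cattle-yak 13 of 15 (15.3%), with medians of -2.32 and -2.63, and 0 were at least 2-fold higher in either library. *CA4*, a carbonic anhydrase of capillaries, was at 32.4 CPM in yak LECs and 361 CPM in yak blood ECs, and at 12.7 and 286 CPM in the cattle-yak. *NOSTRIN*, which traffics endothelial nitric oxide synthase, had log2 ratios of -3.28 and -3.98. The basement membrane collagen *COL4A1* was at 489 CPM in yak LECs and 2456 CPM in yak blood ECs, and at 457 and 1833 CPM in the cattle-yak. Its partner *COL4A2* had log2 ratios of -2.31 and -2.02. Genes named by rule for their low ratio in the yak had to be at least 2-fold lower in the cattle-yak too. Among them, *PALMD* had log2 ratios of -4.13 and -4.25, the ephrin receptor *EPHA4* -3.92 and -3.59, and the transcription factor *DACH1* -3.90 and -3.94. Of 13 arterial genes tested in the yak, 7 were at least 2-fold lower in LECs (9.92% of all tested genes) and 1 at least 2-fold higher, and of 11 in the cattle-yak 7 were lower (15.3%) and 1 higher, with medians of -1.38 and -1.10. Among cells of 3000 to 8000 UMIs the lower genes were 4 and 3. The netrin receptor *UNC5B* was the higher gene in both libraries, at log2 ratios of 1.92 (1.51 to 2.69) and 1.60 (1.02 to 2.39). In the cattle-yak the higher count was 0 when 4 UMIs of *PROX1*, *FLT4* and *RELN* together were required, and up to 2 under other settings.

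RNA of pericytes, the mural cells that wrap capillaries, lay in the blood EC class rather than in LECs. The 7 pericyte genes summed to 372 CPM in yak and 909 CPM in cattle-yak blood ECs, against 94.2 and 45.3 CPM in LECs. All 4 tested pericyte genes in the yak (9.92% of all tested genes) and all 5 in the cattle-yak (15.3%) were at least 2-fold lower in LECs. The list held 326 UMIs in yak LECs against 2286 in yak blood ECs, and 50 against 6261 in the cattle-yak. In the cattle-yak the tested genes thus reached the minimum of 50 summed counts through blood ECs. Their direction there follows from that choice and is a description only. *RGS5* was the most abundant pericyte gene in yak LECs and *PDGFRB* in cattle-yak LECs, and *NDUFA4L2* had no UMI in either. When blood ECs with at least 2 pericyte UMIs were left out, no lymphatic, pan-endothelial or blood endothelial count moved by more than 1.5 times.

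Genes of the VEGFC pathway went both ways. Of 22 tested in the yak beside the rule and gate genes, 10 were at least 2-fold higher in LECs (10.4% of all tested genes were) and 2 at least 2-fold lower (9.92%), with a median of 0.44. In the cattle-yak 7 of 20 were higher (5.08% of all tested genes) and 5 lower (15.3%), with a median of -0.17, close to that of all genes. The lower count was 3 in the cattle-yak under 4 other settings, among them cells of 3000 to 8000 UMIs, and 1 in the yak under 2. The ligands were near the floor: *VEGFC* had 3 UMIs in yak LECs and 4 in cattle-yak LECs, and *VEGFD* had 1 and 0. *CCBE1* and *ADAMTS3*, which process *VEGFC*, had 11 and 2 UMIs in the yak and 4 and 2 in the cattle-yak.

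Of the receptors, *FLT4* was part of the rule and was at 61.9 CPM in yak and 84.3 CPM in cattle-yak LECs. *NRP2*, its coreceptor, was at 167 and 240 CPM, with log2 ratios of 2.80 (2.58 to 3.12) and 2.96 (2.74 to 3.28). *KDR*, another receptor of this family, was lower in LECs than in blood ECs, at 217 against 377 CPM in the yak and 155 against 479 CPM in the cattle-yak. *ITGA9*, an integrin subunit needed for lymphatic valves, was at 195 and 154 CPM, with log2 ratios of 1.83 and 3.03.

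In the angiopoietin system, a ligand was higher and its receptor lower in LECs. *ANGPT2*, a ligand of the TEK receptor that endothelial cells release, was at 1081 CPM in yak LECs and 500.4 CPM in cattle-yak LECs, with log2 ratios of 3.13 (3.03 to 3.26) and 3.34 (3.16 to 3.56). Its receptor *TEK* was lower in LECs, at 34.1 and 13.6 CPM, with log2 ratios of -1.62 (-1.95 to -1.37) and -2.80 (-3.73 to -2.16). The ligand *ANGPT1* had 8 and 5 UMIs. *EPHB4*, the receptor of *EFNB2*, was at 20.2 and 12.7 CPM, with log2 ratios of 2.21 and 1.56, while *EFNB2* itself was at log2 ratios of 0.04 in the yak and -1.01 in the cattle-yak. Adrenomedullin (*ADM*), which promotes lymphatic growth, was at 46.5 and 39.9 CPM in LECs and 8.79 and 10 CPM in blood ECs, whereas its receptor *CALCRL* was lower in LECs at -1.04 and -0.80. The phosphatase *PTPN14* had log2 ratios of 1.76 and 1.64, the planar polarity gene *CELSR1* 1.83 and 2.38, and the connexin *GJA1* 1.20 and 1.76.

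**Figure D2:**
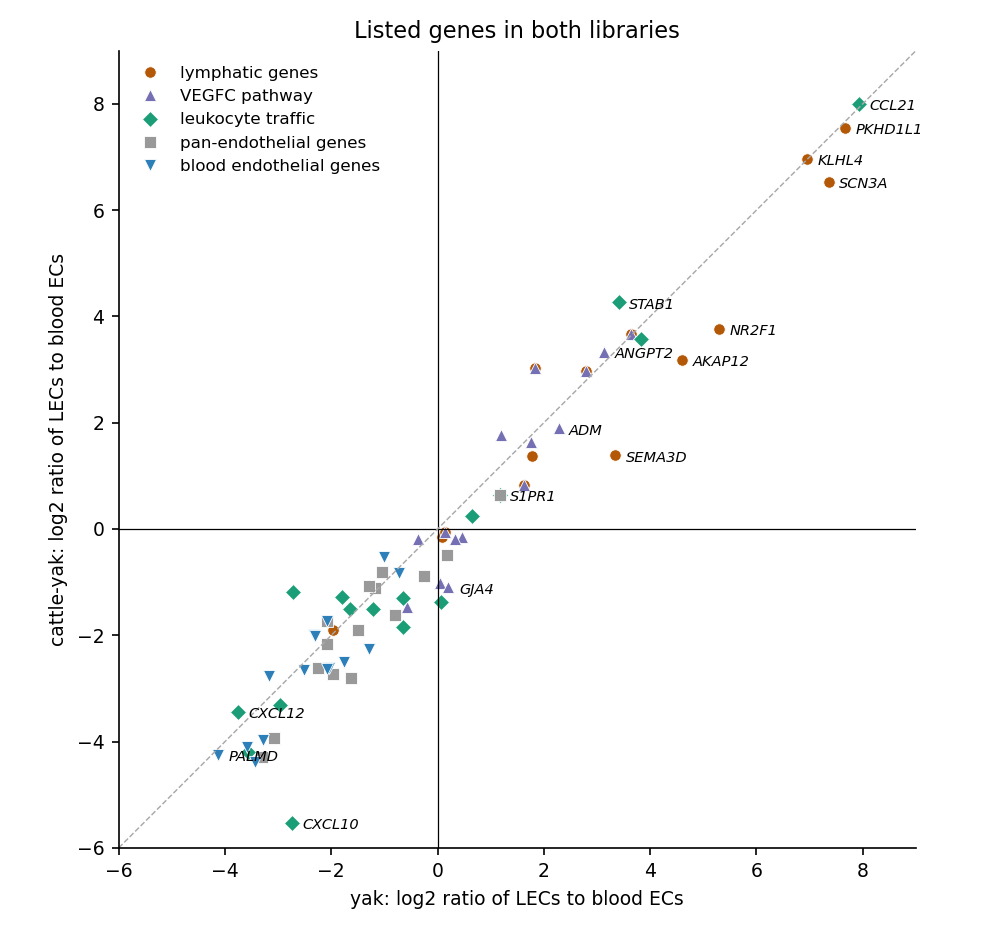
Log2 ratio of LECs to blood ECs in the yak (x axis) and the cattle-yak (y axis) for listed genes with at least 50 summed UMIs in each library, without the rule and gate genes. A gene on several lists carries the marker drawn last, and the dashed line marks equal ratios. *CCL21* lies at 7.94 and 8.00, and *GJA4* lies on opposite sides of 0, at 0.20 and -1.10.

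Genes of leukocyte traffic went both ways. Of 18 tested in the yak, 5 were at least 2-fold higher in LECs (10.4% of all tested genes) and 8 at least 2-fold lower (9.92%). In the cattle-yak 3 of 16 were higher (5.08%) and 11 lower (15.3%), and the lower count was 6 when blood ECs with pericyte UMIs were left out and 3 among cells of 3000 to 8000 UMIs. Besides *CCL21* and *STAB1*, the lymphocyte survival cytokine *IL7* was higher, at 31.5 and 35.4 CPM in LECs and 1.3 and 2.03 CPM in blood ECs, with log2 ratios of 3.82 (3.57 to 5.85) and 3.58 (3.21 to 5.12). *SPHK1*, which makes sphingosine 1-phosphate, had a log2 ratio of 2.09 in the yak, and 2 UMIs in cattle-yak LECs. The atypical chemokine receptor *ACKR2* had 28 UMIs in yak LECs and 27 in cattle-yak LECs (8.09 and 24.5 CPM), against 1 and 0 in blood ECs. Adhesion and chemokine genes of blood vessels were low: *CXCL12* had log2 ratios of -3.76 (-3.95 to -3.61) and -3.44 (-3.87 to -3.09), *JAM2* -2.97 and -3.32, and *VCAM1* 4.63 and 0.906 CPM in LECs against 65.7 and 34 CPM in blood ECs.

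Among genes of lipid handling, *FABP5*, a fatty acid-binding protein, was at 228 CPM in yak LECs and 43.5 CPM in cattle-yak LECs, with log2 ratios of 5.10 (4.84 to 5.86) and 2.20 (1.74 to 2.89). The HDL receptor *SCARB1* had log2 ratios of -1.13 and -1.23. Of the list, 3 of 8 tested genes were at least 2-fold higher and 3 lower in the yak, and 3 of 9 and 4 in the cattle-yak (over all tested genes 10.4% and 9.92%, and 5.08% and 15.3%). Of 9 junction genes tested in the yak, 2 were at least 2-fold higher and 4 lower, and of 8 in the cattle-yak 2 and 3, against the same shares over all genes, with *GJA1* among the higher genes of both.

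Of 26 secreted and matrix genes tested in the yak, 9 were at least 2-fold higher in LECs and 10 lower, and of 24 in the cattle-yak 7 and 9 (over all tested genes 10.4% and 9.92%, and 5.08% and 15.3%). The growth factor *IGF1* was at 108 and 79.8 CPM, with log2 ratios of 3.82 (3.54 to 4.51) and 2.24 (1.89 to 2.72). The clotting inhibitor *TFPI* was at 97.4 and 59.8 CPM, with log2 ratios of 2.70 and 1.72, and the basement membrane link protein *NID1* at 76 and 62.5 CPM, with 2.62 and 1.14. *BMP2* was at 43.4 and 77.1 CPM, with log2 ratios of 1.19 and 2.24. *SPARC*, a matricellular protein, was far lower in LECs, at -2.68 and -3.54. *IGFBP7* was abundant in both classes, at 8403 and 8636 CPM in LECs and log2 ratios of -0.60 and -0.57.

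Dissociation and cell cycle genes were compared next. Of 16 immediate early and heat shock genes, 1 was at least 2-fold higher in each library and 0 were lower, which is a share of the list near those of 10.4% and 5.08% over all tested genes, and that gene was *KLF6* in both, at log2 ratios of 1.30 and 1.44. The list summed to 29578 CPM in yak LECs and 28279.5 CPM in cattle-yak LECs, and to 20286 and 22000.3 CPM in blood ECs. Of 8 tested cell cycle genes, 2 in the yak (10.4% of all tested genes) and 3 in the cattle-yak (5.08%) were at least 2-fold higher and 0 were lower. All 11 cell cycle genes in the annotation summed to 236 CPM in yak and 719.7 CPM in cattle-yak LECs, against 227 and 358 CPM in blood ECs, with *CENPF* as the most abundant gene in LECs of both libraries. Of its cattle-yak UMIs, 49.9% lay in 1 LEC.

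Markers of T/NK, contractile, stromal and macrophage cells were far lower in LECs than in those classes, though not absent. T/NK genes summed to 245 CPM in yak LECs and 106 CPM in cattle-yak LECs, against 4939 and 6960 CPM in T/NK cells, with *CCL5* most abundant and *GZMA* at 0 in both. In blood ECs they summed to 83 and 21.8 CPM, but blood ECs that met the T/NK gate had been left out, while the 14 yak LECs and 1 cattle-yak LEC that met it had not. Contractile genes summed to 1437 and 625 CPM, against 21120 and 26434 CPM in contractile cells, with *TAGLN* most abundant. Stromal genes summed to 273 and 491 CPM, against 9664 and 8259 CPM in stromal cells. Macrophage genes summed to 2959.9 and 501 CPM, of which *CD74* gave 2901 and 481 CPM. The macrophage marker *AIF1* was at 36.7 CPM in yak LECs and at 23.5 CPM without 1 LEC that held 37% of its UMIs, and *C1QB*, *CSF1R* and *AIF1* were at 0 in the cattle-yak. Germ cell genes summed to 222 CPM in yak and 461 CPM in cattle-yak LECs, with *UCHL1* most abundant in both, and to 105 and 53.9 CPM in blood ECs. At least 2-fold higher in LECs were 4 of 7 tested germ cell genes in the yak (10.4% of all tested genes) and 3 of 3 in the cattle-yak (5.08%), with medians of 2.11 and 3.45. The cattle-yak genes were *UCHL1*, *TKTL1* and *SYCP1*, and each reached the minimum of summed counts on LEC UMIs alone. Their UMIs lay in 23, 7 and 6 LECs, with 33.4%, 37.3% and 35.8% in 1 LEC for each gene. Their direction there follows in part from that minimum, rests on few cells and is a description only. In the yak the germ cell sum was larger in T/NK cells, at 2239 CPM, and in contractile cells, at 255 CPM, than in LECs, whereas in the cattle-yak T/NK cells came next after LECs, at 125 CPM. Epithelial and Sertoli cell genes summed to 72.6 and 40.8 CPM. The part of doublets and of free RNA in these levels was not tested.

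LECs were not uniform. After thinning to 2000 UMIs, which left out 8 yak and 4 cattle-yak LECs, 110 of 2350 genes in the yak and 105 of 1943 in the cattle-yak had a variance above 2 times their mean. In the yak, the symbols among the 10 most dispersed genes were *CCK*, *ISG15* and *JUN*, and in the cattle-yak *CCL21*, *IGFBP7*, *MYH11* and *JUN*. Some of these values rested on few cells. In the yak, 91.5% of the thinned UMIs of ENSBGRG00000020609 and 87.7% of those of ENSBGRG00000008342 lay in 1 cell, as did 31.1% of those of the interferon-induced *ISG15*. In contrast, the cell with the most *CCL21* UMIs held 1.6% of the thinned total in the yak, where 56.9% of LECs had a UMI.

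*CCL21* varied widely among LECs in both libraries. In yak LECs thinned to 2000 UMIs its median was 1 UMI and its highest value 23, and 222 of 515 cells (43.1%) had none. In cattle-yak LECs the median was 8 and the highest value 88, and 14 of 213 cells (6.57%) had none. As background, a *CCL21* UMI was found in 1.91% of yak and 7.9% of cattle-yak T/NK cells thinned to the same depth, whose unthinned medians were 2302.5 and 2590 UMIs. Unthinned, 69.4% of yak and 97.2% of cattle-yak LECs had a *CCL21* UMI.

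**Figure D3:**
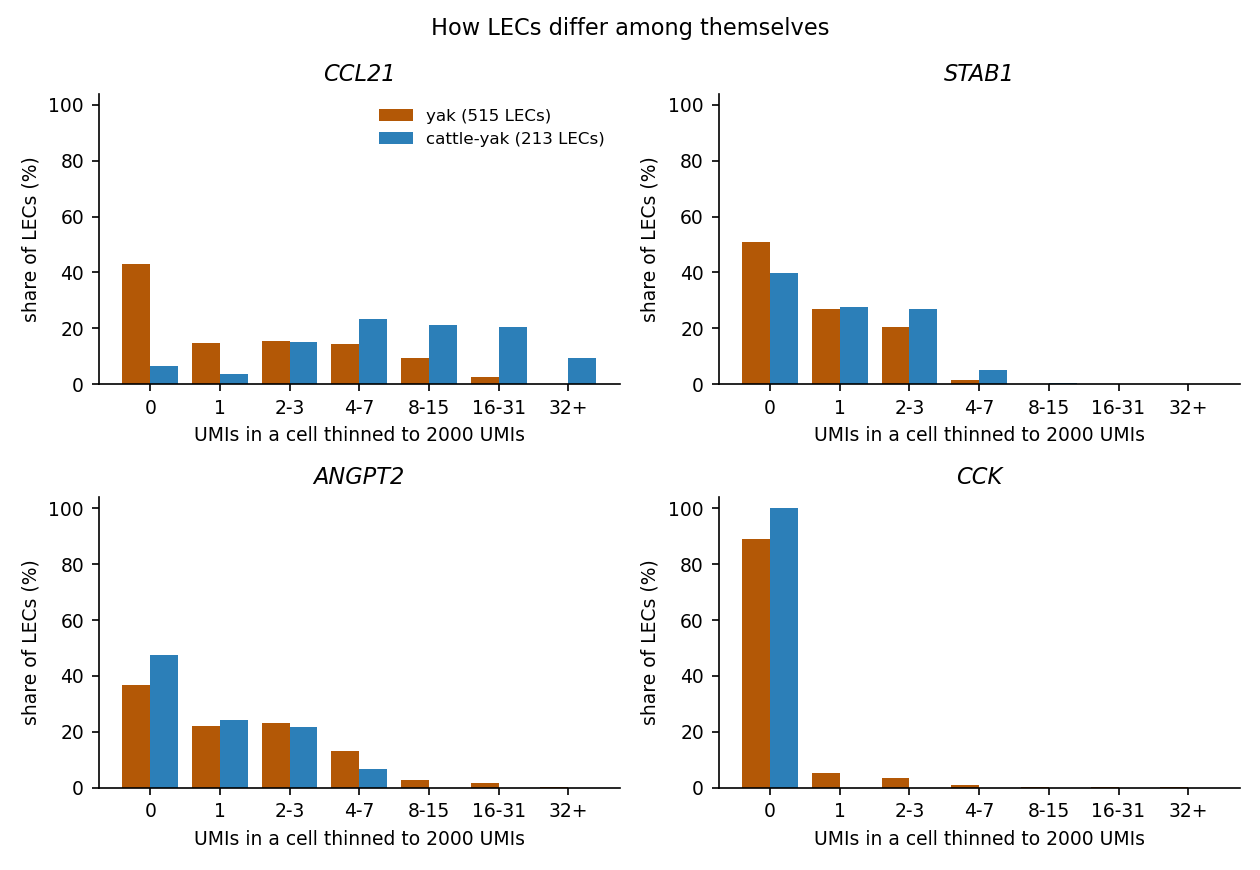
Share of LECs (y axis, %) by the number of UMIs of *CCL21*, *STAB1*, *ANGPT2* and *CCK* in cells thinned to 2000 UMIs (x axis), for 515 yak and 213 cattle-yak LECs. *CCL21* is spread from 0 to over 16 UMIs, with 43.1% of yak and 6.57% of cattle-yak LECs at 0, whereas *CCK* is at 0 in 89.1% of yak LECs and in all cattle-yak LECs.

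Genes that went with *CCL21* within a library were listed after their values had been seen, and no test was made of them. In the yak, 137 LECs with at least 4 thinned *CCL21* UMIs were set beside the 222 LECs with none after thinning, of which 28.8% held a *CCL21* UMI before it, at similar median depths of 4911 and 5054.5 UMIs. *STAB1* was at 560 against 231 CPM (log2 ratio 1.27, 1.08 to 1.48), *ITGA9* at 363 against 126 CPM (1.52, 1.26 to 1.79) and *NRP2* at 284 against 111 CPM (1.35, 1.07 to 1.65). *IGFBP5*, a binding protein of insulin-like growth factors, showed a log2 ratio of 4.08 (3.72 to 4.56), with UMIs in 32.1% of the *CCL21*-rich and 12.2% of the *CCL21*-poor cells. *ANGPT2* ran against *CCL21*, at 489 against 1502 CPM, as did *FABP5* (115 against 318 CPM) and the nuclear envelope gene *SYNE2* (346 against 817 CPM). *CCK* did so too, at 49.5 against 408 CPM, so these values are not separate from those of the *CCK*-rich LECs described below. The part of those cells in the *ANGPT2* and *FABP5* values was not tested. Of the rule genes, *PROX1* was at 211 and 246 CPM, whereas *MMRN1* (0.55, 0.48 to 0.63) and *RELN* (0.51, 0.34 to 0.68) were higher with *CCL21*. In the cattle-yak, 159 LECs were rich in *CCL21* and 14 had no thinned UMI of it, 64.3% of them with a UMI before thinning. There *ITGA9* (log2 ratio 2.71, 1.18 to 5.05), *NRP2* (2.11, 1.06 to 3.45) and *STAB1* (1.00, 0.49 to 1.57) were higher with *CCL21*. The 14 poor cells held only 3, 7 and 32 UMIs of *ITGA9*, *NRP2* and *STAB1*, so these ratios rest on few counts. However, *STAB1* UMIs were found in 82.4% of the rich and 85.7% of the poor cells. The rule genes *MMRN1* (1.14, 0.90 to 1.39) and *RELN* (0.64, 0.18 to 1.13) were higher with *CCL21* too, and *FLT4* was at 0.74 (-0.44 to 2.25). These values again do not characterise the cells, since the rule used these genes. *ANGPT2* had the opposite sign there, at 0.77 (0.24 to 1.35). The other yak patterns were not seen beyond counting error, with *IGFBP5* at 0.72 (-1.26 to 3.88) and *FABP5* at 1.13 (-0.80 to 4.28).

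*CCK*, the peptide hormone cholecystokinin, was abundant in a small set of yak LECs but not in them alone. Of 1426 *CCK* UMIs in the yak library 776 lay in LECs, and of 69 cells with at least 5 of them 33 were LECs and 10 macrophages. It had 776 UMIs in yak LECs (224 CPM), found in 85 of 523 cells (16.3%), of which 10 cells held 64.6%. Thinned to 2000 UMIs, 10.9% of yak LECs and 0.726% of T/NK cells had a *CCK* UMI. At least 5 raw UMIs were seen in 33 yak LECs (6.31%, 4.38 to 8.75%). In the cattle-yak, LECs held 1 *CCK* UMI in all, and 0 of 217 cells had 5 or more, which allows a share of up to 1.38% at a limit of 3 cells and 1.69% by the exact binomial interval. In yak blood ECs *CCK* had 11 UMIs, and yak macrophages were at a higher level than LECs, 313 CPM, with 145 UMIs in 31 of 129 cells. None of the 33 *CCK*-rich LECs met the macrophage gate, 3 met another gate, none held a UMI of *C1QA*, *C1QB* or *CSF1R*, 1 held a UMI of *C1QC*, and 30 of them lay in the LEC cluster.

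The 33 *CCK*-rich LECs of the yak were set beside the 438 with no *CCK* UMI. They were deeper, at a median of 8221 against 4850.5 UMIs, and these genes too were chosen after their values had been seen. *NEO1*, the receptor neogenin, had UMIs in 29 of 33 *CCK*-rich cells and in 4.34% of the others, at 539 against 16.6 CPM (log2 ratio 4.94, 4.55 to 5.53). The desmosome gene *DSP* had UMIs in 27 of 33 and in 17.1% of the others, at 359 against 48.2 CPM (2.87, 2.54 to 3.25). *BAIAP2L2*, a membrane-bending protein, was seen in 16 of 33 and in 3.2% of the others. *ANGPT2* was at 2613 against 727 CPM, *S100A4* at 2671 against 813 CPM, *FABP5* at 506 against 161 CPM and *GJA4*, a connexin, at 677 against 321 CPM. Of the rule genes, *PROX1* was at 417 against 186 CPM, *RELN* at 219 against 590 CPM and *FLT4* at 16.9 against 67.1 CPM. Since the rule asked for their sum, a cell rich in *PROX1* passed it without the others, so these 3 values do not characterise the *CCK*-rich cells. *CCL21*, *STAB1* and the pentraxin *PTX3* were lower as well, at log2 ratios of -1.70 (-1.92 to -1.48), -1.49 (-1.91 to -1.12) and -1.96 (-2.61 to -1.40). The germ cell genes *PIWIL1*, *HORMAD2* and *TDRD5* were also among the largest ratios, but 98.3 to 100% of their UMIs among the 33 cells lay in 1 cell.

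*NEO1* was picked from the *CCK*-rich cells, so its overlap with *CCK* in these same cells is a description and not further evidence. At least 2 *NEO1* UMIs were found in 52 yak LECs (9.94%, 7.52 to 12.8%), and 43 of these had a *CCK* UMI, whereas 37 of the 456 yak LECs without *NEO1* did (8.11%). Among yak LECs of no other gate, 37 of 44 cells with *NEO1* had *CCK*, and among those of 3000 to 8000 UMIs 19 of 25 did. In the cattle-yak, 2 of 217 LECs (0.922%, 0.112 to 3.29%) had 2 or more *NEO1* UMIs, neither with *CCK*, and both lay outside the LEC cluster. *NEO1* was at 117 CPM in yak LECs and 9.97 CPM in cattle-yak LECs, while in blood ECs it was at 4.72 and 10 CPM.

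**Figure D4:**
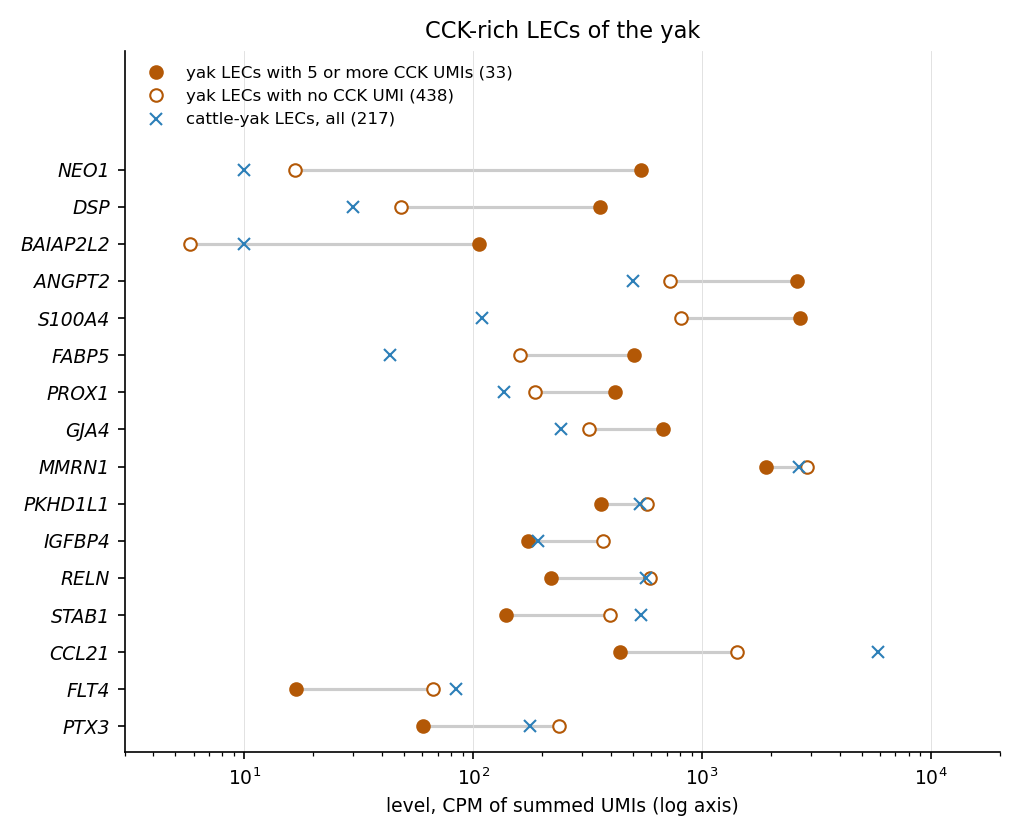
Levels (x axis, CPM of summed UMIs, log axis) of 16 genes in the 33 yak LECs with at least 5 *CCK* UMIs (filled circles), the 438 yak LECs with none (open circles) and all 217 cattle-yak LECs (crosses). *NEO1* is at 539, 16.6 and 9.97 CPM, and *CCL21* at 438, 1423 and 5851 CPM.

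LECs of the cattle-yak were then set beside those of the yak. Of 4687 genes with at least 100 summed UMIs, 18 (0.384%) were at least 4-fold higher in cattle-yak LECs and 113 (2.41%) at least 4-fold lower. Both counts were smaller among cells of 3000 to 8000 UMIs, at 9 and 23, and larger at a minimum of 10 summed counts, at 93 and 710. The lower count was also smaller without LECs of another gate, as given in the last section. The median log2 ratio of all genes was -0.24, and 0.06 when mitochondrial features and the 2 most abundant features were left out of the CPM, so ratios below are to be read against that shift. Those 2 features, ENSBGRG00000010006 and ENSBGRG00000021408, took 9.83% and 2.15% of the UMIs of yak LECs and 15.2% and 3.34% of those of cattle-yak LECs.

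Lymphatic genes differed in how their levels compared between the libraries. *PKHD1L1* had a log2 ratio of cattle-yak to yak of 0.01 (-0.13 to 0.14), and *KLHL4* -0.03 (-0.28 to 0.22). *MMRN1*, which chose the cells, was at 2709 and 2662 CPM. *NRP2* (0.53, 0.31 to 0.74) and *STAB1* (0.64, 0.50 to 0.79) were somewhat higher in the cattle-yak. *AKAP12* (-0.73, -0.81 to -0.65), *NR2F1* (-1.01, -1.21 to -0.81), *SEMA3D* (-1.09, -1.56 to -0.69) and *TFPI2* (-1.29, -1.55 to -1.05) were lower. *GPX3*, which was not on the lymphatic list, was 1.41 higher on the log2 scale (1.28 to 1.55), against -0.74 in blood ECs.

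*CCL21* was the lymphatic gene with the largest excess in the cattle-yak, at 5851 CPM (5710 to 5996) against 1201 CPM (1165 to 1238), a log2 ratio of 2.28. Over 11 other settings the ratio lay between 2.00 and 2.59. Its UMIs were also more frequent in every other class of the cattle-yak, with a log2 ratio of 2.22 in blood ECs and of 2.94 in T/NK cells. Levels in those classes were far below those in LECs, at 3.9 and 21.9 CPM in blood ECs and 10.1 and 84 CPM in T/NK cells of the yak and the cattle-yak. The part of free RNA in these values was not tested.

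**Figure D5:**
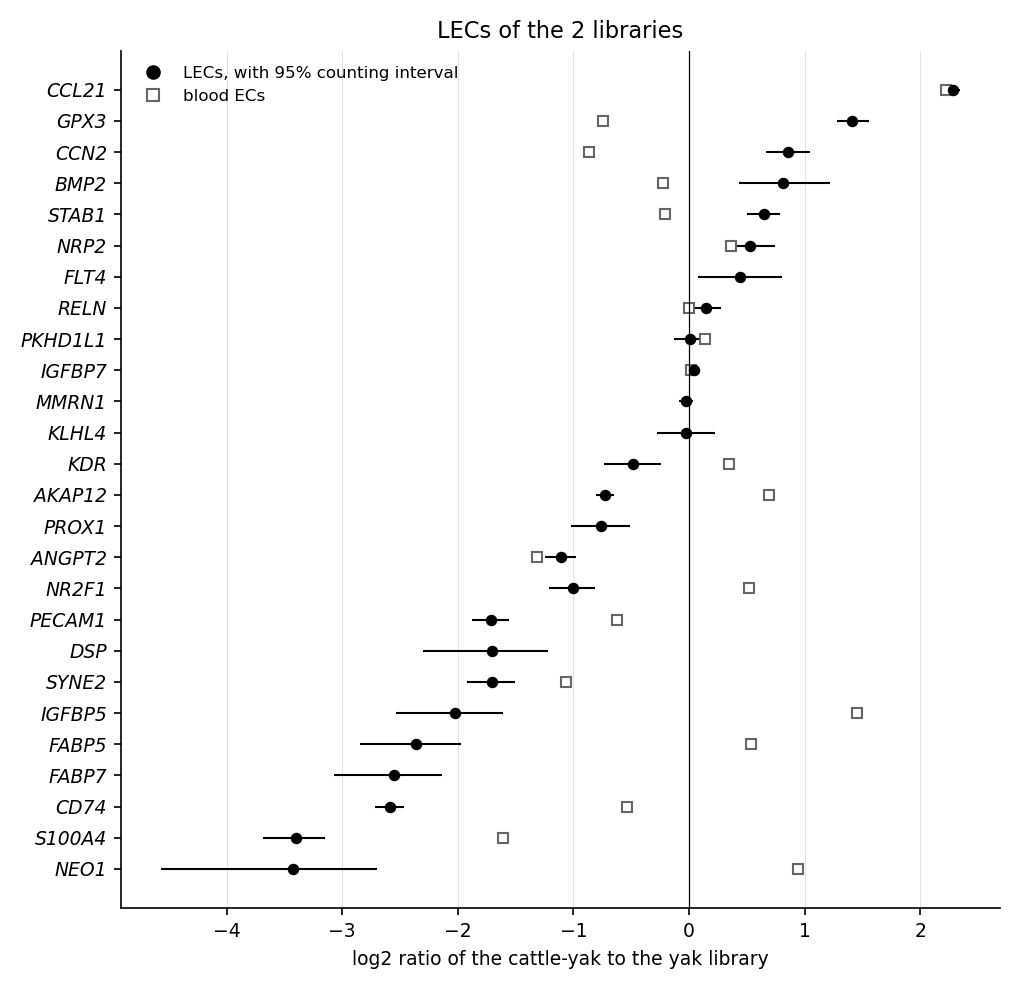
Log2 ratio of the cattle-yak to the yak library in LECs (circles, with 95% counting intervals) and in blood ECs (open squares, drawn where both libraries held at least 10 UMIs). *CCL21* lies at 2.28 in LECs and 2.22 in blood ECs, whereas *IGFBP5* lies at -2.03 in LECs and 1.45 in blood ECs.

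Among genes lower in cattle-yak LECs, of which *S100A4* was chosen after its values were seen, the calcium-binding protein gene *S100A4* was at 110 CPM against 1167 CPM in the yak, a log2 ratio of -3.40 (-3.68 to -3.15), beside -1.61 in blood ECs. *CD74*, the invariant chain of MHC class II, was at 481 against 2901 CPM, a log2 ratio of -2.59 (-2.72 to -2.47), beside -0.54 in blood ECs. *FABP7* had a log2 ratio of -2.56 (-3.07 to -2.14) and *FABP5* of -2.36 (-2.84 to -1.97), whereas in blood ECs *FABP5* was at 0.54. *PECAM1* was at -1.71 (-1.87 to -1.56) in LECs and -0.63 in blood ECs. *VWF* had 204 UMIs in yak LECs and 7 in cattle-yak LECs, and 21.6% of the yak UMIs lay in 1 cell. The sodium channel subunit *SCN3B* had 44 and 1 UMIs. *CCK* was the 1 gene with a symbol among the 6 lowest ratios, with the values given above.

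The genes with symbols among the 6 highest ratios were *CENPF*, a kinetochore protein of dividing cells, and *UCHL1*, a ubiquitin hydrolase of germ cells and neurons. *CENPF* was at 383 CPM in cattle-yak and 48.6 CPM in yak LECs, but 49.9% of its cattle-yak UMIs lay in 1 of the 21 LECs that held any. *UCHL1* was at 298 and 38.5 CPM, with 33.4% of its cattle-yak UMIs in 1 of 23 LECs. Without the highest cell of each library, *CENPF* was at 200 against 33.7 CPM and *UCHL1* at 206 against 23.7 CPM. Among cells of 3000 to 8000 UMIs the log2 ratios fell from 2.96 to 1.01 for *CENPF* and from 2.92 to 1.59 for *UCHL1*. Requiring 4 UMIs of *PROX1*, *FLT4* and *RELN* together raised them to 4.18 and 4.12. Other germ cell genes went both ways. *SYCP1*, which builds the synaptonemal complex of meiotic cells, was at 60.7 CPM in cattle-yak and 15.3 CPM in yak LECs, from 6 and 16 cells. The spermatid genes *ACRV1* and *HMGB4* had 101 and 115 UMIs in yak LECs and 0 in cattle-yak LECs, and *ZPBP* had 112 and 2. Of the yak UMIs of *ACRV1*, *HMGB4* and *ZPBP*, 44.6%, 38.3% and 30.4% lay in 1 LEC for each gene, without which they were at 16.4, 20.8 and 23.1 CPM. The part of germ cell RNA in these ratios was not tested.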

How the data were processed

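Per library, the authors deposited a Cell Ranger matrix of raw counts, that is, whole numbers of UMIs for 26961 genes of the yak annotation, 15722 of them with a symbol. The submitters' processing notes name Cell Ranger 2.1.1, the matrix header names 5.0.0, and the study's methods name a further version. Which version made the files was not settled. The methods name the yak genome as the reference. All barcodes in the files were read, and the 37 features whose identifier lacks the prefix of yak genes gave the mitochondrial share. The paper removed cells outside 2 SD of the mean number of genes and UMIs, which is an alternative here. The members and the 18 gene lists were chosen with earlier results of these data known.

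Counts were summed over the cells of a class and scaled to CPM. Reference classes were set by raw UMIs, and a cell meeting more than 1 gate was in none. Blood ECs needed 2 UMIs of *PECAM1*, *CDH5* and *TIE1*, 3 of *VWF*, *EMCN* and *PLVAP*, and none of *MMRN1* or *PROX1*. T/NK cells needed 3 UMIs of *CD3D*, *CD3G*, *CD247* and *NKG7*, and macrophages 3 of *C1QA*, *C1QB*, *C1QC* and *CSF1R*. Stromal cells needed 1 UMI of *PDGFRA*, 5 of *DCN*, *LUM*, *COL1A2* and *COL3A1*, and no *MYH11*, and contractile cells 3 each of *MYH11* and *ACTA2* and no *PDGFRA*. The gates were also written with *FLT1*, *CD3E* and *COL1A1*, which were not found by symbol and gave no UMI. Genes with at least 50 summed counts entered the comparison with blood ECs, and those with at least 100 the comparison of libraries. No p-value was computed, since each group is 1 library.

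Besides all genes of the lists, the genes named were the 12 highest and 8 lowest ratios to blood ECs in the yak among genes with 50 counts in the higher class, a UMI in 20% of cells and 2-fold the same way in the cattle-yak, the 6 highest and 6 lowest ratios between libraries, the 10 most dispersed genes of each library, and *CCK*. Of unnamed identifiers, only a few are given.

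Cells were thinned to 2000 UMIs without replacement before detection shares were computed. Cells were clustered with scanpy 1.11.5 and igraph 0.11.9 at a resolution of 1, with 2000 variable genes, 30 components, 15 neighbours and a seed of 0, and the other steps used scipy 1.17.1, numpy 2.4.6, scikit-learn 1.9.0, pandas 2.3.3 and matplotlib 3.10.9 under Python 3.11.15. The ratio and its interval were tested on simulated data. Sequences of the genes were not used here. Some genes of the lists are counted but their values are not reported here.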

Additional observations from a re-analysis of the deposited data

Results flagged for a closer look

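Among named genes with at least 50 summed UMIs in each library, leaving out the rule and gate genes, 3 had a ratio of LECs to blood ECs that was at least 2-fold in 1 library or both and whose counting intervals lay on opposite sides of 0. None of these differences was tested. The connexin *GJA4* had a log2 ratio of 0.2 in the yak and -1.1 in the cattle-yak, *CENPF* of -0.81 and 1.7, and *UCHL1* of -0.34 and 3.0. In the cattle-yak, 1 LEC held 49.9% of the *CENPF* UMIs, and without it *CENPF* fell from 383 to 200 CPM. For *UCHL1*, 1 LEC held 33.4%, and without it the level fell from 298 to 206 CPM. The ratios above include these UMIs. Cells that met the gene rule at a mitochondrial share of 30% or more were outside the comparisons. There were 27 such cells in the yak, 4.91% of all cells that met the gene rule, and 43 in the cattle-yak, 16.5%. *CCL21* was at 418 CPM (270 to 617) in those yak cells and at 5338 CPM (5024 to 5665) in those cattle-yak cells.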

How the results depend on the processing

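No paired analysis was possible because each group holds 1 library and the replicate number was given in accession order. The rule on raw UMIs takes deeper cells. Requiring 4 UMIs of the 3 partner genes gave 337 yak and 92 cattle-yak LECs, thinning cells to 2000 UMIs first gave 261 and 99, and a mitochondrial limit of 20% gave 78 in the cattle-yak. Against blood ECs, the yak count of 377 genes at least 4-fold higher was 221 within 2 SD of genes and UMIs, 207 without LECs of another gate, 232 with every cell weighted equally, 177 with 5 CPM added, 176 among cells of 3000 to 8000 UMIs and 652 at a minimum of 10 counts. Lower genes came to 158 in the yak and 229 in the cattle-yak with 5 CPM added and to 186 in the cattle-yak at 3000 to 8000 UMIs, and higher genes in the cattle-yak to 323 at 10 counts. Between libraries, the 18 higher and 113 lower genes were 9 and 40 within 2 SD, 9 and 23 at 3000 to 8000 UMIs, and 93 and 710 at 10 counts. The lower count was 43 without LECs of another gate and 58 with equal weights, and the higher count 11 without the 10% of cells with the top Scrublet scores. In the cattle-yak, VEGFC pathway genes 2-fold lower were 3 within 2 SD, at 3000 to 8000 UMIs, with equal weights or with mitochondrial and top features left out of the CPM; that last setting and the removal of LECs of another gate each gave 1 in the yak. Leukocyte traffic genes 2-fold lower in the cattle-yak were 6 within 2 SD or without pericyte UMIs and 3 at 3000 to 8000 UMIs. Arterial genes 2-fold higher in the cattle-yak were 0 with 4 partner UMIs and 2 with the other CPM, without top Scrublet scores or without pericyte UMIs. At 3000 to 8000 UMIs, arterial genes 2-fold lower were 4 in the yak and 3 in the cattle-yak, and pan-endothelial genes 2-fold lower in the cattle-yak were 7. With the other CPM 1 pan-endothelial gene was 2-fold higher in the cattle-yak, and with equal weights 2 lymphatic genes were 2-fold lower there. Thinned to 1000 UMIs, 53 yak and 37 cattle-yak genes had a variance above 2 times the mean. The depth window and the blood ECs without pericyte UMIs were chosen after seeing the data. All other counts (288) stayed within 1.5 times the main value, and of 1191 values of single genes 318 moved beyond their counting interval and 0 changed the sign of a called ratio. The causes were not tested.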
